A study of Mus musculus with 24 samples.

Results

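Transcripts of the receptors through which noradrenaline, acetylcholine, angiotensin II and the endothelins act on the heart were followed in ventricles of newborn and young mice. The set held 8 receptor genes, Adrb1, Adra1a, Adra1b, Chrm2, Agtr1a, Agtr2, Ednra and Ednrb, a selection by name from these 4 families, and each was read from the brightest probe set that carried its symbol alone. Probe sets were found for 5 of the 8 (Adra1b, Chrm2, Agtr1a, Agtr2 and Ednrb, 1 each), out of 18819 genes tested. Adrb1, Adra1a and Ednra are not analysed here.

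Ventricular muscle of 24 C57/Bl6 mice (C57BL/6J in the Methods) was hybridized to Affymetrix whole-transcript arrays, 6 arrays in each of 4 groups, namely young knockout (KO), young wild type (WT), newborn KO and newborn WT. KO hearts lacked caspase-7 in every tissue and caspase-3 in the cells in which Cre was driven by Nkx2.5 regulatory sequence, which acts in the cardiac lineage, so that other cells of the ventricle kept the floxed caspase-3 gene. The sample annotation gives day 1 to 2 after birth for newborn and day 30 for young hearts, and the Methods give ages that differ from these by up to some days. The Methods mention equal numbers of males and females, beside the 6 WT hearts, but sex and batch were not given for each array. Nothing states beyond the numbering that the 6 arrays of a group came from separate litters, so p-values measure the spread between these samples.

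These receptors all belong to the class that couples to heterotrimeric G proteins. Alpha-1 adrenergic, AT1 and endothelin receptors act mainly through Gq and phospholipase C, which raises calcium and activates protein kinase C. The muscarinic M2 receptor acts through Gi, slows the heartbeat and opposes the cyclic AMP made after beta-adrenergic stimulation. In rodents the AT2 receptor is known as a transcript of fetal and newborn tissues, and the endothelin B receptor as one of endothelial and neural crest derived cells.

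Values were log2 signals, on which a difference of 1 is a 2-fold change. Array medians ran from 4.24 to 4.50, arrays correlated with the rest of their group at a mean r of 0.985 to 0.993, and 0 of 276 pairs of arrays were identical. The precision is limited by the number of arrays, and because the arrays give no detection calls and probe sets differ in brightness, levels were not compared between genes. The caspase genes themselves are not analysed here, so the genotype labels were not checked on them. The newborn arrays were scored on the 80 genes with the smallest p between KO and WT in young hearts, on a scale on which the young genotype difference is 1. Newborn KO array 4 had a score of -0.14, while the remaining newborn KO arrays had 0.054 to 0.27. Newborn WT array 4 had a score of 0.16, while the remaining newborn WT arrays had -0.20 to -0.050. These 2 arrays therefore scored on the side of the other genotype, and values without them are given where they matter. The young KO and WT hearts that gave the 80 genes also differed in atrial and smooth muscle markers (median log2 differences 1.64 and 1.25, 0 called). Whether the score follows genotype or tissue content was not tested. The 8 ventricular cardiomyocyte markers had a mean signal of 11.78 to 11.89 in young KO, 11.82 to 12.01 in young WT, 12.14 to 12.28 in newborn KO and 12.15 to 12.28 in newborn WT arrays. The mean of 8 atrial markers (Nppa left out) was 5.84 to 9.45 in young KO, 5.16 to 8.61 in young WT, 8.12 to 9.21 in newborn KO and 7.45 to 9.17 in newborn WT arrays. The signal of these markers was thus unequal between the arrays. Whether this comes from atrial tissue in the samples was not tested.

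Chrm2, Ednrb and Agtr2 had the largest age differences of the 5 genes. A stretch before an annotated start of each is shown, so that the gene that rose (Chrm2) can be set beside those that fell (Ednrb and Agtr2). Each is the 250 bases before an annotated start, 5′ to 3′ on the gene's strand, from RefSeq on GRCm38.p6. Windows were held for 4 of the 5 measured genes, and Agtr1a had none in the table. Capitals mark matches, on either strand, to 9 motifs, namely the CCAAT box, the GC box GGGCGG, the TATA box TATAAA and its form TATATAA, the GATA site AGATAA, the E-box CANNTG, the AP-1 site TGANTCA, the cyclic AMP response element core TGACG and the MEF2 core TATTTATA.
Chrm2: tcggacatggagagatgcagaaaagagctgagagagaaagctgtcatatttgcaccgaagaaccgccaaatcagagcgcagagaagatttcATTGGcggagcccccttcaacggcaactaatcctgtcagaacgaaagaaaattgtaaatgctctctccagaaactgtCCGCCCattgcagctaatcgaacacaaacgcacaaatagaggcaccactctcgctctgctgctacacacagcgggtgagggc
Ednrb: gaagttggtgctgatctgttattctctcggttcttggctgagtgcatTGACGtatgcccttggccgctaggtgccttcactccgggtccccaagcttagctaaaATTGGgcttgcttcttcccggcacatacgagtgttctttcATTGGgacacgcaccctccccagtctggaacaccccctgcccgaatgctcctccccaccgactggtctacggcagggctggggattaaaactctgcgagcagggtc
Agtr2: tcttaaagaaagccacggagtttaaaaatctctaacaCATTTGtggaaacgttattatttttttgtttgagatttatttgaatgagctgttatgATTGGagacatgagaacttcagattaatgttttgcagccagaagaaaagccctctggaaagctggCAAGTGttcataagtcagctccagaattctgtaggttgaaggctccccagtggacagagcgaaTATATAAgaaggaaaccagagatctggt
The Chrm2 window lies at chr6:36387834-36388083 on the plus strand, the Ednrb window at chr14:103843702-103843951 on the minus strand and the Agtr2 window at chrX:21484374-21484623 on the plus strand. Their GC contents were 50%, 56.8% and 38.4%. The Ednrb window lies wholly inside the span of its gene (chr14:103814615-103844508), before a start that is not the outermost. The Chrm2 window runs past the outer start of its gene (36387991), so its last bases lie inside the gene. Of the 3, only the Agtr2 window ends directly before its gene (21484624). All 3 held CCAAT in the reverse orientation, once in Chrm2 and Agtr2 and at 2 places in Ednrb, and 33.8% of 32851 such windows held this motif. The Agtr2 window also held TATATAA, 28 to 22 bases before the start, which 3.04% of windows held, and 2 matches to CANNTG, which 66.2% held. Chrm2 also held GGGCGG in reverse (32.7% of windows) and Ednrb held TGACG (17.8%). No match to the TATA box (held by 12.4% of windows), the GATA site (9.99%), the AP-1 site (6.75%) or the MEF2 core (1.56%) was found in these 3 windows.

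With age, Chrm2 and Agtr1a were higher and Agtr2 and Ednrb lower in young than in newborn hearts, in KO and in WT mice alike. In each genotype 2 of the 5 genes rose, 2 fell and Adra1b did not pass the test. The share of all genes called was 59.0% for young against newborn KO hearts (34.0% higher, 25.0% lower) and 47.0% for young against newborn WT hearts (19.2% higher, 27.9% lower), so a count of 4 of 5 is not read as particular to these receptors. In WT hearts the split of all calls was 3612 higher and 5242 lower, and 5027 higher and 4557 lower after median centring. The tests were limma fits over all 24 arrays with Benjamini-Hochberg adjustment over 18819 genes. The age comparisons of the 2 genotypes share no arrays, but each gene has 1 variance from all 24 arrays. Their p-values are therefore not independent.

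Chrm2 (chr6:36387991-36528638), which encodes the M2 receptor, had log2 signals of 10.80, 10.99 and 11.09 (lowest, median and highest) in young KO hearts, against 9.58, 9.82 and 10.40 in newborn KO hearts. In WT hearts they were 10.75, 10.99 and 11.13 in young arrays and 9.56, 9.83 and 10.27 in newborn arrays. Every young array lay above every newborn array of its genotype, as was the case for 31.0% of all genes in KO and 29.7% in WT hearts in 1 direction or the other. Chrm2 was 2.15-fold higher in young KO (log2 difference 1.10, standard error 0.12, adjusted p = 1.97e-08) and 2.19-fold higher in young WT hearts (1.13, standard error 0.12, adjusted p = 1.11e-08).

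Agtr1a (chr13:30336356-30382867), the AT1a receptor that carries most pressor actions of angiotensin II in rodents, had signals of 8.87, 9.02 and 9.36 in young KO hearts, against 8.59, 8.77 and 8.93 in newborn KO hearts. In WT hearts they were 8.74, 9.36 and 9.54 in young arrays and 8.69, 8.84 and 9.04 in newborn arrays. The age groups overlapped in both genotypes, in WT hearts through young array 2, which at 8.74 lay apart from the other 5 (9.31 to 9.54). The rise was 1.21-fold in KO (0.28, standard error 0.11, adjusted p = 0.0277) and 1.35-fold in WT hearts (0.43, standard error 0.11, adjusted p = 0.00152). In KO hearts the call was lost without newborn KO array 6 (adjusted p = 0.0649), young KO array 4 (0.0502) or young KO array 6 (0.0815).

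Agtr2 (chrX:21484624-21488833), the AT2 receptor, had signals of 3.03, 3.39 and 3.64 in young KO hearts, against 3.99, 4.75 and 6.98 in newborn KO hearts. In WT hearts they were 2.96, 3.07 and 3.31 in young arrays and 4.21, 4.64 and 5.91 in newborn arrays. Young and newborn arrays did not overlap in either genotype, and the newborn arrays were far more spread than the young ones (SD 1.25 in newborn KO and 0.60 in newborn WT, 0.24 in young KO and 0.13 in young WT, n = 6 each). Agtr2 fell by 1.84 on the log2 scale in KO (standard error 0.37, adjusted p = 0.000212) and by 1.76 in WT hearts (standard error 0.37, adjusted p = 0.000317). All young signals lay below the array medians (4.24 to 4.50). Without detection calls their distance from background is not known, so the size of the fall is uncertain.

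Ednrb (chr14:103814615-103844508), the endothelin B receptor, had signals of 7.88, 8.32 and 8.53 in young KO hearts, against 9.40, 9.62 and 9.72 in newborn KO hearts. In WT hearts they were 7.33, 7.75 and 8.09 in young arrays and 9.05, 9.49 and 9.80 in newborn arrays. No young array reached the lowest newborn array of its genotype. Ednrb fell by 1.33 on the log2 scale in KO (standard error 0.13, adjusted p = 6.98e-09) and by 1.68 in WT hearts (standard error 0.13, adjusted p = 9.31e-11).

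Adra1b (chr11:43774605-43901250), the alpha-1B adrenergic receptor, had signals of 8.15, 8.35 and 8.56 in young KO hearts, against 7.94, 8.09 and 8.42 in newborn KO hearts. In WT hearts they were 7.97, 8.30 and 8.38 in young arrays and 7.82, 8.06 and 8.33 in newborn arrays, so the ages overlapped in both genotypes. The log2 difference was 0.21 in KO (95% interval 0.011 to 0.40, adjusted p = 0.0633) and 0.16 in WT hearts (-0.038 to 0.36, adjusted p = 0.184). It passed in KO without newborn KO array 5 (adjusted p = 0.0188), young KO array 1 (0.0456) or young KO array 2 (0.0382), and in both genotypes after quantile normalization (0.0417 in KO, 0.0429 in WT).

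**Figure D1:**
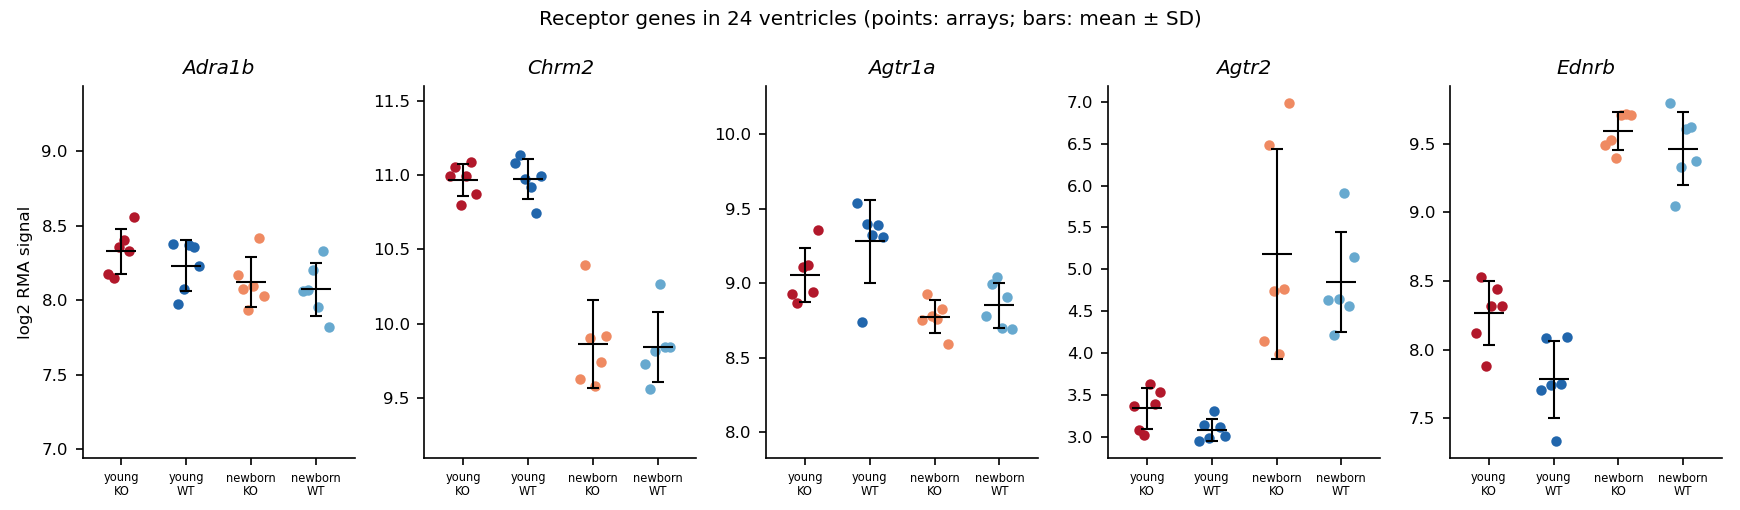
Log2 signal (vertical axis) of the 5 receptor genes in the 4 groups of 6 arrays, with points for arrays and bars for the mean ± SD. Chrm2 was higher, and Agtr2 and Ednrb lower, in every young array than in every newborn array of the same genotype.

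In bulk tissue, fewer cells of a type and less RNA per cell cannot be told apart. Markers of several cell types moved with age alongside the receptors. In young against newborn KO hearts the median log2 difference was -0.69 for 7 fibroblast (3 lower, 1 higher), -1.20 for 6 epicardial (4 lower), -0.57 for 9 atrial (3 lower), -0.11 for 7 endothelial (1 higher, 2 lower) and 1.19 for 6 macrophage markers (6 higher). In WT hearts it was -1.54 for the fibroblast (5 lower), -2.12 for the epicardial (6 lower), -1.13 for the atrial (7 lower), -0.28 for the endothelial (2 higher, 5 lower) and 1.01 for the macrophage markers (6 higher). For 8 ventricular cardiomyocyte markers it was 0.10 in KO (3 higher, 1 lower) and 0.12 in WT hearts (4 higher, 1 lower), and for 6 pericyte markers -0.018 and -0.12. Conduction, smooth muscle, Schwann, autonomic neuron and erythroid lists had medians from -0.36 to 0.33 in KO and from -0.34 to 0.021 in WT hearts. The part of cell content in the receptor changes was not tested.

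Between genotypes, 0 of the 5 receptors passed the test at either age. In newborn hearts all gave adjusted p-values of 0.770 or more and 0 had an unadjusted p under 0.05 (9.07% of all genes did, and 0 genes, 0% of those tested, were called). This count of genes depended on the arrays numbered 4. Without both, 482 genes were called (117 higher and 365 lower in KO), with 73 without newborn WT array 4 alone and 49 without newborn KO array 4 alone. In each of these fits 0 of the 5 receptors were among them. The 2 arrays had been singled out by scores opposite to the rest of their groups. Leaving out arrays chosen in this way can by itself widen the difference between the genotypes. In young hearts 2 receptors had an unadjusted p under 0.05, Ednrb, which was higher in KO, and Agtr1a, which was lower, while 15.0% of all genes did and 1.02% were called (0.670% higher and 0.351% lower). The calls among all genes in young hearts were 126 higher and 66 lower, but 84 higher and 204 lower after median centring and 129 and 141 after quantile normalization.

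Ednrb averaged 8.27 ± 0.23 in young KO and 7.78 ± 0.28 in young WT hearts (SD, n = 6 each), a log2 difference of 0.48 (95% interval 0.22 to 0.75, standard error 0.13, adjusted p = 0.0697 from limma). The groups overlapped, with 7.88 in KO array 3 below 8.08 in WT array 2 and 8.09 in WT array 6. In newborn hearts Ednrb averaged 9.59 ± 0.14 in KO and 9.46 ± 0.27 in WT (SD, n = 6 each), a difference of 0.13 (-0.14 to 0.40, adjusted p = 0.770 from limma). The difference between the effects at the 2 ages was 0.36 (standard error 0.18, adjusted p = 0.416).

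Agtr1a averaged 9.05 ± 0.18 in young KO and 9.28 ± 0.28 in young WT hearts (SD, n = 6 each), a log2 difference of -0.23 (95% interval -0.45 to -0.0083, adjusted p = 0.311 from limma). In newborn hearts it averaged 8.77 ± 0.11 in KO and 8.85 ± 0.15 in WT, a difference of -0.078 (-0.30 to 0.14, adjusted p = 0.835).

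The young genotype values of these 2 genes moved with atrial markers and with single arrays. WT array 2 had the highest atrial mean of the young WT group (8.61) and KO array 3 the lowest of the young KO group (5.84). Without young WT array 2, Ednrb passed (0.54, adjusted p = 0.0211) and so did Agtr1a (-0.34, adjusted p = 0.0273), and without young KO array 3 Ednrb passed (0.56, adjusted p = 0.0148). Leaving out these arrays widens the difference in the atrial marker mean between the groups. With the atrial mean as a covariate among the 12 young arrays, the difference was 0.24 for Ednrb (adjusted p = 0.634) and -0.020 for Agtr1a (adjusted p = 0.985). This fit also leaves out the newborn arrays. Without the covariate, the 12 young arrays gave 19 called genes, against 192 over all 24 arrays. The adjusted p-values were thus not moved by the covariate alone. Over the 12 young arrays, deviations from the group means correlated with the atrial list at r = 0.71 for Ednrb and -0.67 for Agtr1a, with the fibroblast list at 0.85 and -0.63, and with the smooth muscle list at 0.64 and -0.77. Ednrb also correlated with the endothelial list, at 0.76. These are a description of arrays that share their tissue. The young KO minus WT medians of the atrial, smooth muscle, epicardial and fibroblast lists were 1.64, 1.25, 1.13 and 0.46, with 0 genes called, and the ranges of their mean signals overlapped between the groups. The median of the ventricular cardiomyocyte list was -0.035 (1 of 8 lower), and those of the other 7 lists lay between -0.30 and 0.31 with 0 genes called. In newborn hearts the medians of all 12 lists lay between -0.11 and 0.32, also with 0 called.

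**Figure D2:**
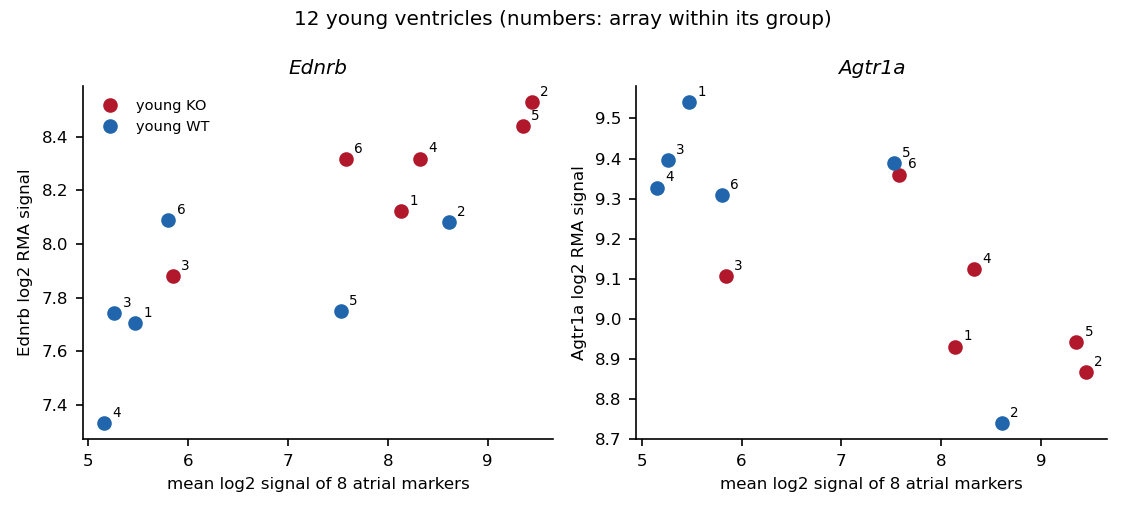
Log2 signal of Ednrb and Agtr1a (vertical axes) against the mean log2 signal of 8 atrial markers (horizontal axis) in the 6 young KO and 6 young WT ventricles, numbered within their group. WT array 2 sits at 8.61 among the KO arrays and KO array 3 at 5.84 among the WT arrays.

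Chrm2 averaged 10.97 ± 0.11 in young KO and 10.98 ± 0.14 in young WT hearts, and 9.86 ± 0.30 in newborn KO and 9.84 ± 0.23 in newborn WT hearts (SD, n = 6 each). Its 95% intervals for KO minus WT were -0.25 to 0.23 in young and -0.22 to 0.26 in newborn hearts. Adra1b differed by 0.099 in young (-0.098 to 0.30) and 0.049 in newborn hearts (-0.15 to 0.25). Agtr2 had the widest intervals of the 5 genes, -0.51 to 1.03 around 0.26 in young and -0.44 to 1.10 around 0.33 in newborn hearts. In newborn hearts 2 KO arrays (6.49 and 6.98) and 1 WT array (5.91, the array numbered 4) stood above the rest (3.99 to 5.15). The fit takes the same variance for a gene in all 4 groups, so the young interval carries the newborn spread. The Agtr2 SD was 1.25 in newborn KO and 0.60 in newborn WT, against 0.24 in young KO and 0.13 in young WT hearts. Without the 2 newborn arrays numbered 4 the newborn Agtr2 difference was 0.78 (adjusted p = 0.322), over 1.5 times the value with them, and Chrm2's was 0.16 (adjusted p = 0.536). The interaction of genotype and age gave adjusted p-values of 0.416 or more for all 5 genes, and 0 of them had an unadjusted p under 0.05 (12.9% of all genes did). In this comparison 0.0106% of all genes (2, both lower) were called. Without the 2 newborn arrays numbered 4 it was 79 genes (51 higher, 28 lower), without young KO array 3 it was 24 (20 higher, 4 lower) and without young WT array 2 it was 17 (13 higher, 4 lower), and 1 to 10 without any other single array, with 0 of the 5 receptors in each case.

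**Figure D3:**
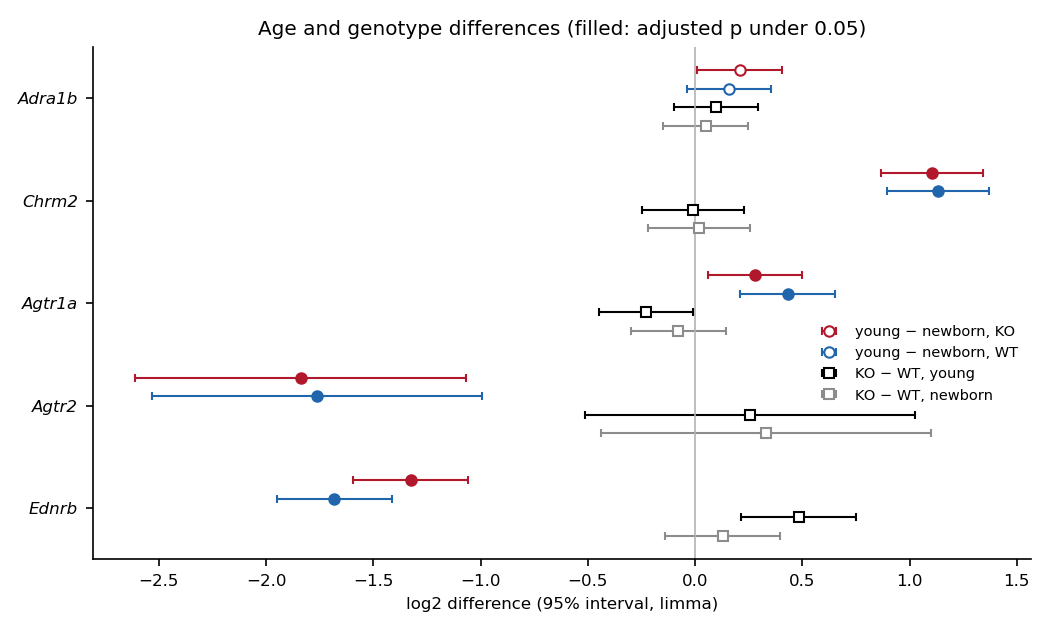
Log2 differences with 95% intervals (horizontal axis) of the 5 receptor genes for young minus newborn hearts in KO and WT, and for KO minus WT in young and newborn hearts. Filled markers passed an adjusted p of 0.05, which only age differences did, and the Ednrb difference of 0.48 in young hearts is unfilled with an interval above 0.

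The receptors also varied from heart to heart within groups. Over the 24 deviations from group means, Agtr2 and Chrm2 correlated at r = 0.70 (Spearman's rho 0.62), with 0.79 over the 12 newborn and 0.013 over the 12 young arrays, and 0.74 without the 2 arrays with the most extreme Agtr2. Adra1b and Agtr1a correlated at r = 0.67 (rho 0.65), with 0.53 over the newborn and 0.81 over the young arrays, and 0.75 without 2 arrays. These pairs were picked from all pairs of the 5 genes, and arrays of 1 group share their processing, so they are given as descriptions. The newborn arrays with the highest Agtr2, KO 6, KO 2 and WT 4, also had the highest newborn means of 5 of the 12 marker lists. For the autonomic neuron markers these were 5.21, 4.56 and 4.66, against 3.86 to 4.22 in the other newborn arrays, and for the conduction markers 6.25, 5.98 and 6.32, against 4.98 to 5.88. The atrial (9.59, 9.54 and 9.53, others at most 9.40), fibroblast (9.97, 9.94 and 9.77, others at most 9.76) and smooth muscle lists (8.10, 7.61 and 7.54, others at most 7.51) behaved likewise, and the part of cell content in the Agtr2 spread was not tested. The genes whose deviations over 24 arrays lay closest to those of each receptor were Prox1 (r = 0.80), Akap1 (0.80) and Fastk (0.78) for Adra1b, Peli2 (0.86), Art3 (0.86) and Amotl1 (0.84) for Chrm2, and Fgf9 (0.87), Irx5 (0.84) and Krtap4-6 (0.83) for Agtr1a. For Agtr2 they were Elmod1 (0.91), Galnt15 (0.88) and Cbr2 (0.88), and for Ednrb Fndc10 (0.87), Enpep (0.83) and F2r (0.82).

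**Figure D4:**
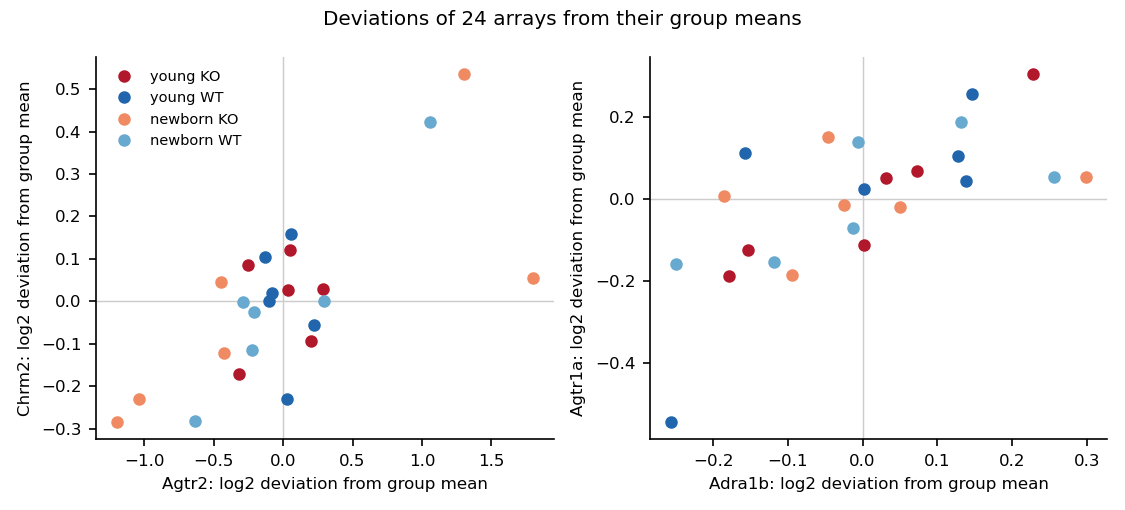
Log2 deviations of the 24 arrays from their group means, Chrm2 against Agtr2 (left) and Agtr1a against Adra1b (right), colored by group. The r values are 0.70 and 0.67, and in the left plot 2 newborn KO arrays lie at the far right.

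The genes around the receptors were followed in 5 lists of receptors, ligands, G proteins, effectors and regulators. Of the other receptors of these families, 6 of 12 were measured. In young against newborn KO hearts 3 rose and 0 fell, and in WT hearts Mas1, a receptor for angiotensin-(1-7), rose by 0.63 (adjusted p = 0.000396) while 0 fell (59.0% of all genes were called in KO and 47.0% in WT hearts). Mas1 signals were 3.17 to 4.06 in young WT and 2.77 to 3.48 in newborn WT arrays. These lay below the array medians (4.24 to 4.50), so the size of the Mas1 rise is uncertain. With the filter at the 30th percentile of signal, 0 of these receptors were called in WT hearts. Between genotypes 0 of the 6 were called at either age, where 0% of all genes were called in newborn and 1.02% in young hearts. An unadjusted p under 0.05 was found for 1 in newborn hearts (9.07% of all genes) and 0 in young hearts (15.0%).

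Of 28 genes for ligands and the proteins that make or clear them, 24 were measured, and 7 rose and 8 fell in young against newborn KO hearts, 5 and 8 in WT hearts (medians 0.047 and -0.077, against 0.098 and 0.0024 over all genes, of which 59.0% and 47.0% were called). In WT hearts Mme, which encodes neprilysin, a protease that degrades endothelins and angiotensins, rose by 1.41, and Maob, a monoamine oxidase, by 1.29. Ddc, the decarboxylase of catecholamine synthesis, fell by 2.90, Slc18a2, the vesicular monoamine transporter, by 1.51, and Slc5a7, the choline transporter of cholinergic terminals, by 1.07 (adjusted p at most 1.40e-06 for these 5 genes). The young WT signals of Slc5a7 (2.94 to 3.31) lay below the array medians (4.24 to 4.50), so the size of its fall is uncertain. Between genotypes in young hearts 2 of the 24 rose in KO (0.670% of all genes did), Pnmt, the enzyme that makes adrenaline (0.49, adjusted p = 0.0149), and Ece1, the protease that matures endothelins (0.45, adjusted p = 0.0464). Pnmt's young KO arrays lay at 3.83 to 4.39 and its young WT arrays at 3.58 to 3.88. With age Pnmt rose by 0.50 in WT (adjusted p = 0.000153) and by 1.00 in KO hearts (adjusted p = 8.35e-09). Its young WT and all its newborn signals lay below the array medians (4.24 to 4.50), so the sizes are uncertain. The genotype call of Pnmt was lost with only the 12 young arrays (adjusted p = 0.0753) and with the atrial covariate (0.244), while the difference was 0.49 and 0.52 in these fits. The Ece1 call did not survive dropping any of 20 arrays (adjusted p up to 0.114, differences of 0.39 to 0.48). The exceptions were arrays 3 of young KO, 2 of young WT, 6 of newborn KO and 4 of newborn WT. With only the 12 young arrays the Ece1 difference was 0.45 (adjusted p = 0.230), and with the atrial covariate added it was 0.18 (adjusted p = 0.695).

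Of 23 G protein genes, 3 rose and 10 fell in young against newborn KO hearts, and 1 rose and 10 fell in WT hearts (medians -0.072 and -0.099). Over all genes 34.0% rose and 25.0% fell in KO, and 19.2% rose and 27.9% fell in WT hearts. In WT hearts Gna12 rose by 0.20 (adjusted p = 0.00434), and Gnai1, an inhibitory alpha subunit, fell by 1.58, Gnb2 by 0.58 and Gnb1 by 0.56 (adjusted p at most 1.70e-08 for these 3). Gnai3, another inhibitory subunit, was higher by 0.41 in young KO than in young WT hearts (adjusted p = 0.0446). It was the 1 gene of the 23 called between genotypes at this age, where 0.670% of all genes were higher in KO. It lost this call when any of 17 arrays was dropped (adjusted p up to 0.121, differences of 0.35 to 0.41). The exceptions were arrays 3 of young KO, 2, 3 and 6 of young WT, 5 and 6 of newborn KO and 4 of newborn WT.

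Of 41 effector genes, 37 were measured, and 18 rose and 8 fell in young against newborn KO hearts, 18 and 10 in WT hearts (medians 0.12 and 0.19), where 59.0% of all genes were called in KO and 47.0% in WT hearts. In WT hearts the phosphodiesterases Pde4a (1.32) and Pde3a (0.64) and the adenylyl cyclase Adcy9 (1.16) rose, and Prkar1b (-0.91) and Prkacb (-0.41), subunits of protein kinase A, and the protein kinase C gene Prkcd (-0.58) fell (adjusted p at most 3.44e-06). Of 29 genes for desensitization and RGS proteins, which speed up the shut-off of G proteins, 27 were measured, and 6 rose and 4 fell in KO, 7 and 9 in WT hearts (medians -0.043 and -0.085), beside the same shares of all genes. Rgs5 (1.00), Rgs4 (0.92) and Rgs2 (0.89) rose in WT hearts, and Rgs12 (-1.36), the receptor kinase Grk3 (-0.92) and Rgs19 (-0.59) fell (adjusted p at most 6.62e-07). No effector, kinase or RGS gene of these lists was called between genotypes at either age (0 of 37 and 0 of 27; 6 effectors and 9 regulators had an unadjusted p under 0.05 in young hearts, where 15.0% of all genes did, and 0 and 1 in newborn hearts, where 9.07% did).

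**Figure D5:**
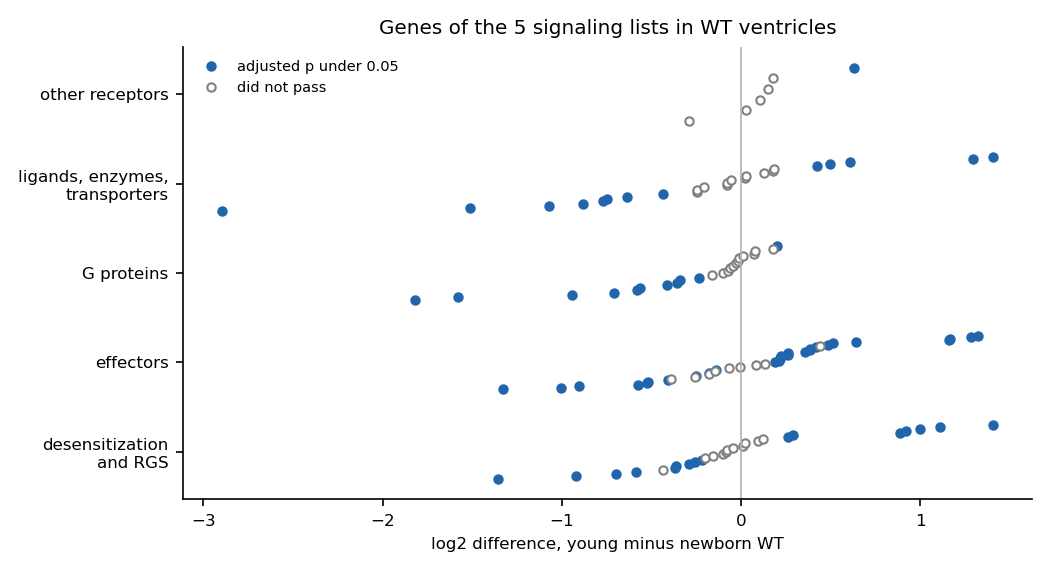
Log2 differences between young and newborn WT hearts (horizontal axis) of the measured genes of the 5 lists, 1 point per gene, filled where the adjusted p was under 0.05. Of the other receptors 1 of 6 was called, and of 37 effectors 18 rose and 10 fell. Over all genes 47.0% were called, 19.2% higher and 27.9% lower.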

How the data were processed

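The deposited values were log2 signals per probe set, which the authors made with RMA (background correction, quantile normalization and probe summarization). The tools listed in the submitters' processing notes are R (version 2.15), oligo (1.22) and limma (3.14). Groups came from the sample annotation. Of 35017 probe sets, 21118 carried 1 gene symbol in the platform annotation, 1735 several and 12164 none. The brightest probe set of each of 18819 genes was used. Group means were fitted over the 24 arrays (20 residual degrees of freedom) in R (version 4.3.3) using limma (version 3.58.1) and its empirical Bayes variances. P-values were adjusted by the Benjamini-Hochberg method across the genes tested and called at an adjusted p under 0.05. Adjusted p-values in the text are limma's. The 5 comparisons were KO against WT at each age, the difference of these effects, and young against newborn hearts in each genotype. The procedure was tested on simulated data.

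The receptors, gene lists, markers and alternatives were chosen with earlier results of these data known. Named were all receptors, list genes called between genotypes, the 3 rises and 3 falls of each list with the smallest adjusted p between young and newborn WT hearts, and the 3 genes with the highest correlation to each receptor. Alternatives were a filter at the 30th percentile of signal, stricter thresholds, median centring, quantile normalization, other variance models, weighting of arrays, a block for the replicate number, other probe set choices, only the arrays compared, an atrial covariate, and leaving out arrays. Leaving out young WT array 2 and young KO array 3 together was added after the data were seen. The statistics supplement of the study was not used here.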

Additional observations from a re-analysis of the deposited data

Results flagged for a closer look

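Over 120 groups of 6 arrays (30 genes in 4 groups), 13 had a highest or lowest array whose gap to the next exceeded Dixon's critical share of the group's range, which chance gives in about 1 in 20 groups. Among the receptors it was 1 of 20 groups. Agtr1a was 8.74 in young WT array 2, against 9.31 to 9.54 in the other 5. The same array stood apart for Slc18a2 (4.61), Gnai1 (7.07), Adcy9 (7.18) and Grk3 (6.55), 5 of the 13 in all. Young KO array 3 stood apart for Gnai3 (7.69), Gna12 (11.2) and Gnai1 (5.93). Newborn WT array 2 did so for Slc18a2 (5.23) and Slc5a7 (3.75), newborn WT array 3 for Mas1 (3.48), newborn WT array 4 for Ece1 (9.81) and newborn KO array 1 for Rgs5 (8.92). All values are log2 signals.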

How the results depend on the processing

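The age calls of Chrm2, Agtr2 and Ednrb kept their direction and their side of the threshold under every alternative run. With age, 4 receptors were called in each genotype, and 3 to 5 under the alternatives. Agtr1a lost its call in young against newborn KO hearts at an adjusted p under 0.01, at a fold change of at least 1.5 and without newborn KO array 6, young KO array 4 or young KO array 6, and in WT hearts at that fold change. Between genotypes in newborn hearts, and in the interaction, 0 receptors were called under every alternative. In young hearts 0 were called with all arrays and 0 to 2 when 1 array was left out, with 2 without young WT array 2 and 1 without young KO array 3. Without both arrays, which was chosen with the data in view and removes the WT array with the highest and the KO array with the lowest atrial mean, 2 were called, Ednrb (0.62, adjusted p = 0.00291) and Agtr1a (-0.35, adjusted p = 0.0180), as were 1586 genes in all, against 192 with all arrays, 784 without young WT array 2 alone and 806 without young KO array 3 alone. With only the 12 young arrays 19 genes were called, and with the atrial covariate 8, so all-gene counts at this age depend on these settings. In newborn hearts 31 genes were called with array weights, against 0. In the interaction 512 were called (474 higher, 38 lower) without young WT array 2 and young KO array 3 together, against 2 lower with all arrays. The cause of these shifts was not tested.

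The replicate numbers were not taken to pair the samples, since no source says what a number shares and not every pair correlated. Arrays of the same number and age correlated between -0.44 and 0.64 in their deviations from the group means. In all, 6 of the 12 young and 1 of the 12 newborn arrays correlated best with their own number, where chance gives 2 of 12. With the replicate number as a block, 0 receptors were called between genotypes at either age and 4 with age in each genotype, the block left Ednrb in young hearts at an adjusted p of 0.0754, and the young count over all genes was 203.

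Counts of the gene lists moved by over 1.5 times as follows. Between genotypes in young hearts, the 2 ligand genes called became 0 at an adjusted p under 0.01, at a fold change of at least 1.5, with the atrial covariate and when only the young arrays were fitted, and 1 with median centring, quantile normalization or all probe sets. The 1 G protein gene became 0 in these settings other than quantile normalization and also without the newborn arrays numbered 4, and 2 with array weights, which also called 1 regulator. Without young WT array 2 and young KO array 3 together, the counts were 5 ligand, 5 G protein, 7 effector and 5 regulator genes at this age, and 2, 3, 1 and 3 in the interaction. When 1 array was left out, the young genotype counts were 1 to 3 for ligands, 0 to 2 for G proteins and 0 to 3 for effectors and for regulators. Between ages, a fold change of at least 1.5 left 4 G protein, 8 effector and 9 regulator genes in WT hearts, and 1 other receptor, 9 ligand, 3 G protein and 9 effector genes in KO hearts. The other receptors called with age in WT hearts became 0 with the signal filter and 2 with median centring, without young WT array 3 or without both young arrays, and those in KO hearts 0 with the signal filter and 1 with quantile normalization.

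Signs turned only in differences that were not called, all log2. With the atrial covariate they were Chrm2 -0.026, Pnmt 0.0095 and Adcy9 0.014 for KO minus WT in newborn hearts, and Ddc 0.24, Gnai1 -0.013, Prkcd -0.026, Rgs12 -0.13 and Grk3 -0.16 in young hearts. With median centring they were Pnmt 0.0088, Pde4a 0.019 and Adcy9 0.020 in newborn hearts, Mas1 -0.041 in young hearts, and Adra1b -0.029, Ddc -0.037 and Prkcd -0.068 for the interaction. With quantile normalization they were Pnmt 0.042, Pde4a 0.018 and Adcy9 0.019 in newborn hearts, Mas1 -0.043 in young hearts, and Mas1 -0.018, Ddc -0.00090 and Prkcd -0.027 for the interaction. With array weights they were Pnmt 0.036 and Pde4a 0.0090 in newborn hearts, Chrm2 0.022 and Mas1 -0.045 in young hearts, and Agtr2 0.052, Ddc -0.060 and Grk3 0.023 for the interaction. Without the newborn arrays numbered 4 they were Pde4a 0.0056 in newborn hearts and Prkcd -0.028 for the interaction. Without young WT array 2 and young KO array 3 together they were Chrm2 0.058 and Mas1 -0.093 in young hearts, Adra1b -0.0080, Chrm2 0.040, Mme 0.012, Ddc -0.091 and Grk3 0.17 for the interaction, and Ece1 0.014 for young minus newborn KO hearts. When 1 array was left out, the KO minus WT difference in newborn hearts ranged from -0.011 to 0.10 for Adra1b, -0.089 to 0.10 for Chrm2, -0.028 to 0.57 for Agtr2, -0.14 to 0.0023 for Mas1, -0.070 to 0.043 for Pnmt, -0.25 to 0.015 for Slc5a7, -0.067 to 0.036 for Pde4a, -0.055 to 0.028 for Adcy9 and -0.087 to 0.0071 for Prkar1b. In young hearts it ranged from -0.054 to 0.026 for Chrm2, -0.079 to 0.13 for Mas1 and -0.20 to 0.036 for Ddc. The interaction ranged from -0.0018 to 0.11 for Adra1b, -0.11 to 0.080 for Chrm2, -0.32 to 0.28 for Agtr2, -0.081 to 0.17 for Ddc, -0.054 to 0.071 for Prkcd and -0.088 to 0.088 for Grk3, and the age difference in KO hearts from -0.13 to 0.014 for Ece1. The cause was not tested.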
